A study of Bos taurus with 45 samples.

Results

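The step from 72% to 89% dietary grain was followed in the 5 heifers of the up group (UG), the animals that the study set apart because their mean ruminal pH was higher, not lower, after this step. The members were chosen by animal number: heifers 262, 178, 352, 286 and 360, each with 1 papilla biopsy on 72% grain and 1 on 89% grain, which makes 10 of the 45 libraries of the series. The pH values are not among the processed files, and the sample labels name none of the pH groups. The other 10 heifers, which the study divided into a group with falling and a group with stable pH, are kept as 1 group here. All 15 animals were Angus-Hereford cross beef heifers of about 8 months that went through the same stepwise grain transition. The labels call it rapid, and the study calls it both rapid and gradual. The first diet, with 0% grain (3% in the labels), was fed on days 1 to 4. The 72% diet (75% in the labels) was fed on days 13 to 16, a diet with 85% grain followed on days 17 to 20, and the 89% diet (92% in the labels) was fed on days 21 to 29. Papillae of the ventral sac were taken on day 3, day 15 and day 26. The day 3 biopsies, on 0% grain, serve here for reference levels, the filter on low values and the fit of all 45 libraries. Each heifer is her own control, but diet, time on grain and an earlier biopsy moved together and cannot be told apart.

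Rumen papillae are lined by a stratified squamous epithelium that absorbs the short-chain fatty acids made by fermentation and keeps acid, microbes and their products out of the blood. Cells divide in the basal layer, mature through the spinous and granular layers and end as cornified cells that are shed into the rumen. More fermentable starch means more acid, and papillae can respond with growth, with altered shedding of the cornified layer and with inflammation. The measurement here is whole papilla tissue, so fewer cells of a type and less RNA per cell cannot be told apart.

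Expression is given as reads per 1000000 (RPM), the share of all reads assigned to genes that fell on 1 gene, scaled so that the values of a library sum to 1000000. The 10 libraries held 22532925 to 34569712 reads on genes, and the 89% library was the deeper one in 4 of 5 heifers, all but heifer 286. The 10 highest genes took 17.1% to 20.4% of the reads on 72% grain. On 89% grain they took 17.6% to 26%, and the highest share belonged to heifer 286. That library also had the lowest scaling factor by the trimmed mean of M-values (TMM, a method that sets the bulk of genes equal between libraries), 0.833 against 0.974 to 1.05 in the other 4 libraries on 89% grain.

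In the paired comparison, no gene passed the threshold. Of 11516 genes tested, 0 (0%) had a Benjamini-Hochberg adjusted p under 0.05 with a change over 1.5-fold, by limma on log2(RPM + 1) with the heifer as a block. The limma standard errors (SE) and p-values here and below are moderated. That is, the variance of each gene is drawn towards a trend over all genes of the fit, so an SE can be smaller than the heifers alone would give. Without the fold minimum the count was also 0, and the smallest adjusted p was 0.102, a value that 79 genes shared. At an unadjusted p under 0.05 there were 1864 genes (16.2%), 488 of them higher (4.24%) and 1376 lower (11.9%) on 89% grain. The verdict depended on the tool: DESeq2 on the recovered reads of the same pairs called 266 genes (2.31%), 155 higher and 111 lower, while the edgeR quasi-likelihood test on the same reads called 0. The study, at the same thresholds, reported genes in both directions for this step in UG with edgeR. It does not state which edgeR test it used or whether the heifer was a term, so the 0 here holds for the quasi-likelihood test only. A single limma fit to all 45 libraries, which takes the spread from all heifers and diets, called 107 genes (0.929%), 40 higher and 67 lower. The DESeq2 list held 96 of these 107 genes (89.7%), which is 36.1% of its own list.

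The excess of lower genes depended on the scale. On RPM the median gene was 0.077 lower on the log2 scale, and 73.8% of the genes at an unadjusted p under 0.05 were lower. After TMM scaling the counts were 941 higher (8.17%) and 779 lower (6.76%), so that 45.3% were lower. Without heifer 286 the RPM counts were 729 higher and 1112 lower, and without heifer 352 the lower genes numbered 894. The direction of the whole set is therefore given on both scales, and single genes are given with their RPM.

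**Figure D1:**
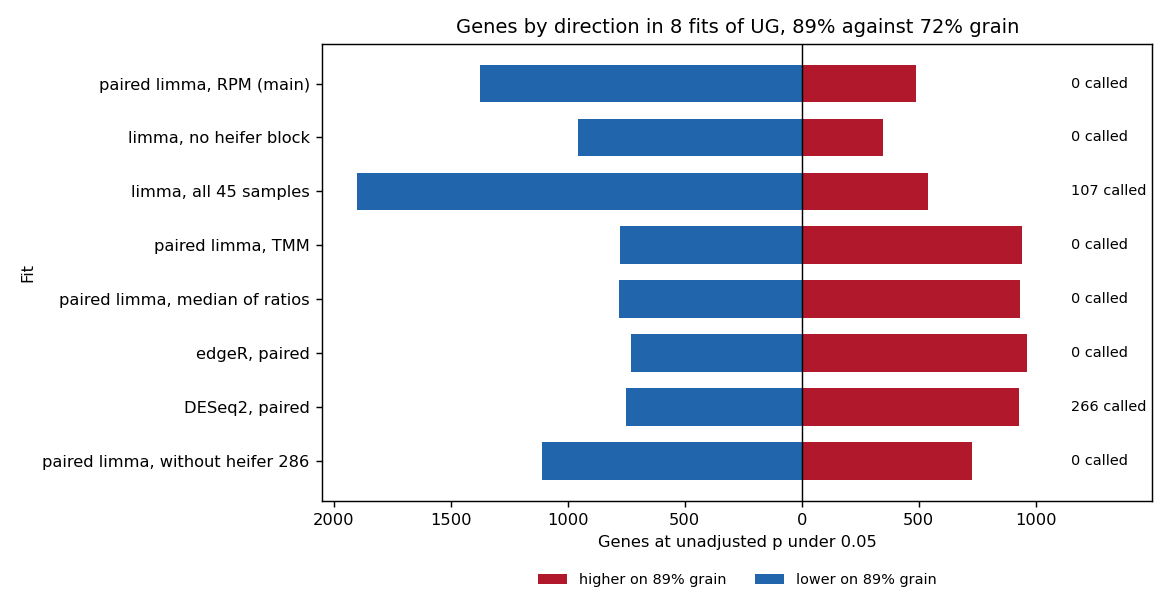
Number of genes at an unadjusted p under 0.05 (horizontal axis) that were higher (red, right) or lower (blue, left) on 89% than on 72% grain in the UG heifers, in 8 fits, with the number called at an adjusted p under 0.05 and over 1.5-fold at the right. The lower genes outnumber the higher ones in the 4 fits on RPM as deposited (1376 against 488 in the paired fit) and not in the 4 fits with a scaling between libraries, and only the fit of all 45 samples and DESeq2 call genes.

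Direction within each heifer gave the same split. On RPM 449 genes (3.9%) were higher in 5 of 5 heifers and 1463 (12.7%) were lower in 5 of 5. After TMM scaling these were 920 (7.99%) and 765 (6.64%). The mean level of the 449 higher genes had a median of 16.5 RPM and that of the 1463 lower genes a median of 27.3 RPM, against 22.1 RPM for all tested genes. Together the 449 genes took 5.29% of RPM on 72% grain and 6.37% on 89% grain, while the 1463 took 11.3% and 9.14%. Of the genes with 1 direction in all 5 heifers, 192 also differed by over 1.5-fold, 91 higher and 101 lower.

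The 5 heifers differed in how many genes moved. In heifers 178 and 360, 4.23% and 4.53% of genes differed over 1.5-fold between the diets. In heifers 262, 352 and 286 the shares were 14.5%, 13.7% and 18.3%. The direction also differed: heifer 262 had 980 genes higher and 693 lower, heifer 352 had 429 higher and 1148 lower, and heifer 286 had 357 higher and 1747 lower. Scaling by TMM brought heifer 286 to 831 higher and 826 lower and left the shares of heifers 178 and 360 at 4.12% and 4.58%. Across the 11516 genes, the log2 differences of heifers 178 and 360 had a Pearson correlation of 0.40, those of 262 and 352 of 0.37 and those of 352 and 286 of 0.32. The other 7 pairs of heifers lay between -0.01 and 0.17. These correlations are across genes, which are not independent, and describe these animals.

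**Figure D2:**
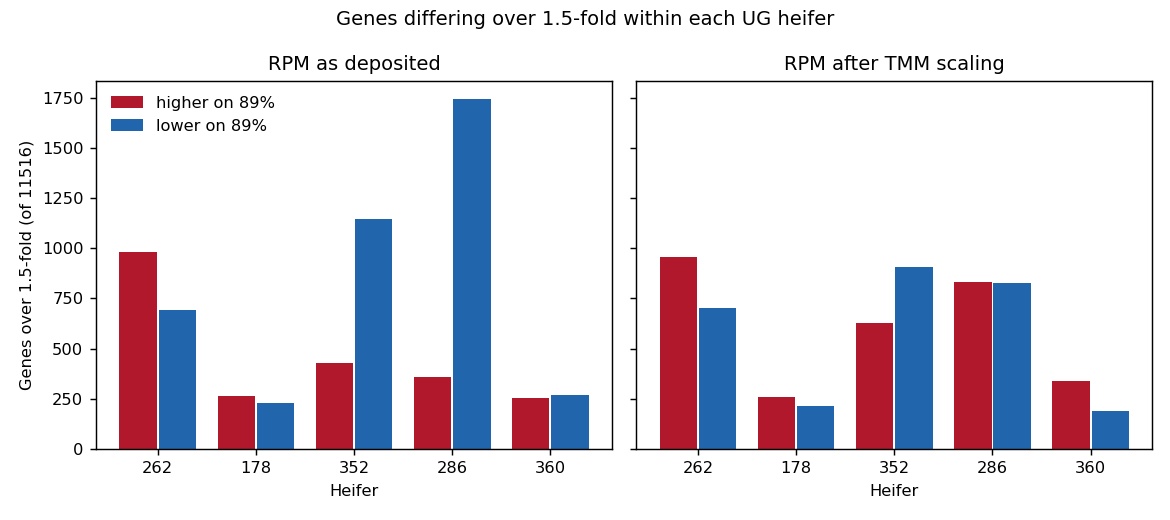
Number of the 11516 tested genes (vertical axis) that were over 1.5-fold higher (red) or lower (blue) on 89% than on 72% grain within each UG heifer, on RPM as deposited (left) and after TMM scaling (right). Heifers 178 and 360 have the fewest genes in both panels, and the 1747 lower genes of heifer 286 become 826 after scaling.

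Which diet had the wider spread between the 5 animals depended on the scale and on heifer 286. On RPM the median over genes of the standard deviation of log2(RPM + 1) was 0.208 on 72% and 0.225 on 89% grain, and 55% of genes were more variable on 89% grain. After TMM scaling the medians were 0.202 and 0.188, and 45.8% of genes were more variable on 89% grain. Without heifer 286 the medians on RPM were 0.196 and 0.172, and 43.6% of genes were more variable on 89% grain.

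Names could be given to 18 genes, of which 16 were tested, and they are taken below by function. The study listed 13 of them because they were detected in every heifer on 1 diet only, and the other 5 (CYP1A1, CYP1B1, CDSN, KLK10, CHAC1) because they went opposite ways in UG and in the heifers with falling pH. Neither set was chosen independently of these samples, so their values on this step are a description, most of all those of the last 5. None of the 16 passed the threshold, 2 were higher in 5 of 5 heifers (against 3.9% of all tested genes) and 1 was lower in 5 of 5 (against 12.7%). With 5 pairs, the exact sign-flip test of 1 gene cannot go below a two-sided p of 0.0625.

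CYP1A1 (ENSBTAG00000001021) and CYP1B1 (ENSBTAG00000010531) are cytochrome P450 enzymes that oxidise aromatic compounds, and both are textbook targets of the aryl hydrocarbon receptor. CYP1B1 was at 4.97 RPM in heifer 262, 9.12 in 178, 18.5 in 352, 11.6 in 286 and 14.0 in 360 on 72% grain. On 89% grain it was at 14.6, 16.7, 33.3, 15.6 and 15.6 RPM in the same order. It was higher in 5 of 5 heifers, and the ranges of the diets overlapped because heifer 352 was the highest on both. The log2 difference was 0.71 ± 0.168 (SE, n = 5, paired limma, adjusted p = 0.132), DESeq2 gave an adjusted p of 0.000578 with the heifer block and 0.162 without it, and the limma fit of all 45 libraries gave 0.245. The identifier was matched to the name by this change, so these p-values are not an independent test of it.

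CYP1A1, the more inducible of the pair, was narrow on 72% grain, from 54.4 RPM in heifer 360 to 77.6 RPM in heifer 262. On 89% grain it reached 254 RPM in heifer 262, 120 in heifer 352 and 119 in heifer 286, but was at 46.2 RPM in heifer 178 and 43.1 RPM in heifer 360. It was higher in 3 heifers and lower in 178 and 360, the heifers with the fewest genes over 1.5-fold. The mean was 66.1 ± 9.32 RPM on 72% and 116 ± 85.6 RPM on 89% grain (SD, n = 5), and the log2 difference was 0.51 ± 0.269 (SE, paired limma, adjusted p = 0.374). Before grain, on the 0% diet, both genes were higher than on 72% grain, at 158 ± 62.6 RPM for CYP1A1 and 30.4 ± 14.6 RPM for CYP1B1, with heifer 286 the exception for CYP1A1 (62.7 RPM on 0% and 73.2 RPM on 72% grain).

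**Figure D3:**
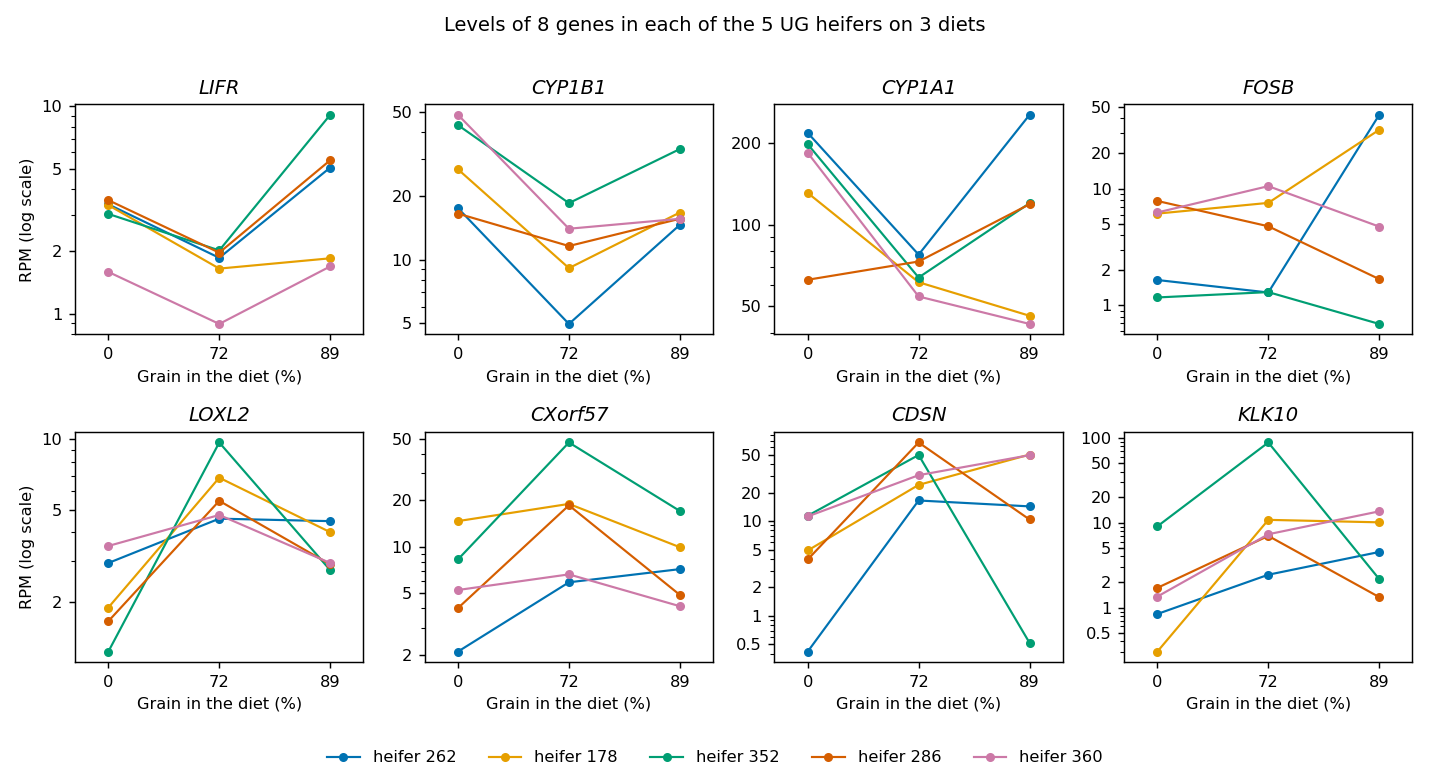
RPM on a log axis of 8 genes in each UG heifer (1 line each) on 0%, 72% and 89% grain. LIFR and CYP1B1 are higher on 89% than on 72% grain in all 5 heifers and LOXL2 is lower in all 5, while CYP1A1, FOSB, CDSN and KLK10 go up in some heifers and down in others.

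Corneodesmosin (CDSN, ENSBTAG00000021721) holds cornified cells together, and kallikrein-related peptidase 10 (KLK10, ENSBTAG00000015129) belongs to the family of proteases active where such cells are shed. CDSN was at 16.5 RPM in heifer 262, 24.1 in 178, 49.8 in 352, 67.5 in 286 and 30.5 in 360 on 72% grain. On 89% grain it was at 14.3, 50.3, 0.521, 10.4 and 49.6 RPM in that order. The heifers parted: 352 and 286 were far lower, 178 and 360 were higher, and 262 hardly differed. CDSN missed the filter on low values, and without a filter its log2 difference was -1.22 ± 0.891 (SE, limma, adjusted p = 0.62). KLK10 was also far lower in heifers 352 and 286, going from 88.0 to 2.17 RPM in heifer 352 and from 6.99 to 1.33 RPM in heifer 286. It was higher on 89% grain in heifers 262 (2.44 to 4.52 RPM) and 360 (7.31 to 13.6 RPM), and close to even in heifer 178 (10.8 to 10.1 RPM). Its mean of 23.1 ± 36.4 RPM on 72% grain rested on heifer 352, and the log2 difference of -1.04 ± 0.693 (SE, paired limma, adjusted p = 0.477) was -0.09 to -1.50 when each heifer was left out in turn, with -0.09 being the value without heifer 352.

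CHAC1 (ENSBTAG00000010371), an enzyme that breaks down glutathione and is induced by the unfolded protein response, split the heifers in a similar way. From 72% to 89% grain it went from 6.86 to 0.0868 RPM in heifer 352, from 7.71 to 0.615 RPM in heifer 286 and from 14.0 to 2.81 RPM in heifer 262. It went from 4.95 to 7.49 RPM in heifer 178 and from 3.39 to 9.16 RPM in heifer 360. The lowest of these values rests on 3 reads. Without the filter, which CHAC1 did not pass, the log2 difference was -1.11 ± 0.647 (SE, limma, adjusted p = 0.525). FOSB (ENSBTAG00000008182), an immediate early transcription factor subunit, had another order of heifers. It was at 1.29 RPM in heifer 262 and 7.55 RPM in heifer 178 on 72% grain and at 42.8 and 31.9 RPM on 89% grain. In heifers 352, 286 and 360 it was lower on 89% grain, at 0.694, 1.68 and 4.73 RPM against 1.30, 4.76 and 10.5 RPM. The log2 difference of 0.73 ± 0.688 (SE, paired limma, adjusted p = 0.619) was -0.15 without heifer 262.

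LOXL2 (ENSBTAG00000006214) and CTGF (ENSBTAG00000006367) act on the extracellular matrix, LOXL2 as a secreted lysyl oxidase that cross-links collagen and CTGF as a matricellular growth factor. LOXL2 was at 4.57 RPM in heifer 262, 6.85 in 178, 9.70 in 352, 5.45 in 286 and 4.74 in 360 on 72% grain. It was at 4.46, 4.00, 2.75, 2.91 and 2.95 RPM on 89% grain. Each heifer had less on 89% grain and the diets did not overlap, since 4.57 RPM was the lowest value on 72% and 4.46 RPM the highest on 89% grain, although heifer 262 barely moved. The mean was 6.26 ± 2.12 RPM on 72% and 3.41 ± 0.766 RPM on 89% grain (SD, n = 5), a log2 difference of -0.69 ± 0.194 (SE, paired limma, adjusted p = 0.165, exact sign-flip p = 0.0625). On the 0% diet it had been at 2.25 ± 0.94 RPM, which puts the highest level on 72% grain. CTGF had the same order of means, 2.52 ± 0.999, 5.69 ± 2.13 and 3.99 ± 2.66 RPM on 0%, 72% and 89% grain. Both genes were listed by the study for detection on 72% grain only, so a highest level on 72% and a fall on 89% grain go with that choice. From 72% to 89% grain it was lower in heifers 352, 286 and 360 and higher in 262 and 178, with a log2 difference of -0.57 ± 0.307 (SE, paired limma, adjusted p = 0.381). CDHR2 (ENSBTAG00000025340), an adhesion protein of the cadherin family, was higher on 89% grain in 4 of 5 heifers, all but 286, with means of 4.46 ± 2.39 and 6.56 ± 3.71 RPM and a log2 difference of 0.44 ± 0.204 (SE, paired limma, adjusted p = 0.325). The study listed CDHR2 for detection on 89% grain only, so a higher level on that diet goes with the choice.

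LIFR (ENSBTAG00000010423), the receptor chain for leukemia inhibitory factor, had the largest higher value among the named genes on the log2 scale. The study listed it for detection on 89% grain only, so a higher level on that diet goes with the choice. It was at 1.86 RPM in heifer 262, 1.65 in 178, 2.02 in 352, 1.97 in 286 and 0.892 in 360 on 72% grain. On 89% grain the values were 5.07, 1.85, 9.11, 5.50 and 1.69 RPM. All 5 heifers were higher, with log2 differences from 0.10 in heifer 178 to 1.74 in heifer 352. The log2 difference was 0.91 ± 0.221 (SE, paired limma, adjusted p = 0.138), and LIFR did pass in the fit of all 45 libraries (adjusted p = 0.0446) and in DESeq2 (0.00138). On 72% grain heifer 360 was the only heifer of the series under 1 RPM, so a low UG value kept that diet out of the listing. These tests use the same values and are not evidence of a change. The other 10 heifers had 3.03 to 8.22 RPM on 72% grain, all above the UG maximum of 2.02 RPM, a difference that was not tested. On 89% grain the other heifers had 3.56 to 8.79 RPM, and the ranges overlapped. BMP6 (ENSBTAG00000019234), a growth factor of the bone morphogenetic family, was at 2.46 ± 1.19 RPM on 72% and 2.33 ± 0.911 RPM on 89% grain, with a log2 difference of -0.03 ± 0.177 (SE, paired limma, adjusted p = 0.943). RASL1A (ENSBTAG00000005244, the symbol as the study prints it), a member of the Ras-like family, was at 6.32 ± 3.58 and 4.97 ± 3.54 RPM (log2 difference -0.35 ± 0.169 (SE), paired limma, adjusted p = 0.338).

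Neither gene of immunity passed the threshold. CXCL6 (ENSBTAG00000009812), a chemokine that attracts neutrophils, was at 8.48 RPM in heifer 262, 3.76 in 178, 20.5 in 352, 4.51 in 286 and 1.71 in 360 on 72% grain. It was at 3.63, 13.8, 0.984, 0.55 and 2.41 RPM on 89% grain. Heifers 178 and 360 were again the ones that were higher. The study listed CXCL6 for detection on 72% grain only, so a fall on 89% grain goes with that choice. The log2 difference was -0.87 ± 0.582 (SE, paired limma, adjusted p = 0.479). BOLA-A (ENSBTAG00000005182), a class I histocompatibility heavy chain that presents peptides to T cells, was at 8.39 ± 2.07 and 7.97 ± 3.42 RPM, with a log2 difference of -0.14 ± 0.148 (SE, adjusted p = 0.669). BOLA-A belongs to a family of near-identical genes between which reads can be split, so its level is uncertain.

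Of the genes of lipid handling, ABCG1 (ENSBTAG00000021272), which moves cholesterol out of cells, was at 3.85 ± 2.45 RPM on 72% and 5.03 ± 2.0 RPM on 89% grain. It was higher in 3 of 5 heifers (log2 difference 0.46 ± 0.252 (SE), paired limma, adjusted p = 0.385). The study listed ABCG1, too, for detection on 89% grain only, so a higher level on that diet goes with the choice. VNN1 (ENSBTAG00000015094), a pantetheinase of the cell surface, was at 6.71 RPM in heifer 286 on 72% grain and at 0.486 RPM on 89% grain. In the other 4 heifers it was between 0.533 and 2.50 RPM on 72% and between 0.719 and 1.45 RPM on 89% grain. Its log2 difference of -0.55 ± 0.358 (SE, paired limma, adjusted p = 0.469) was -0.09 without heifer 286. CXorf57 (ENSBTAG00000003668) was lower in 4 of 5 heifers, from 19.5 ± 16.8 to 8.64 ± 5.23 RPM, with heifer 262 going from 5.90 to 7.18 RPM. The log2 difference was -0.87 ± 0.247 (SE, paired limma, adjusted p = 0.167, and DESeq2, 0.00853 with and 0.451 without the heifer block). ENSBTAG00000009144, a gene without a symbol, was nearly level in each heifer, with log2 differences between -0.20 and 0.22.

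**Figure D4:**
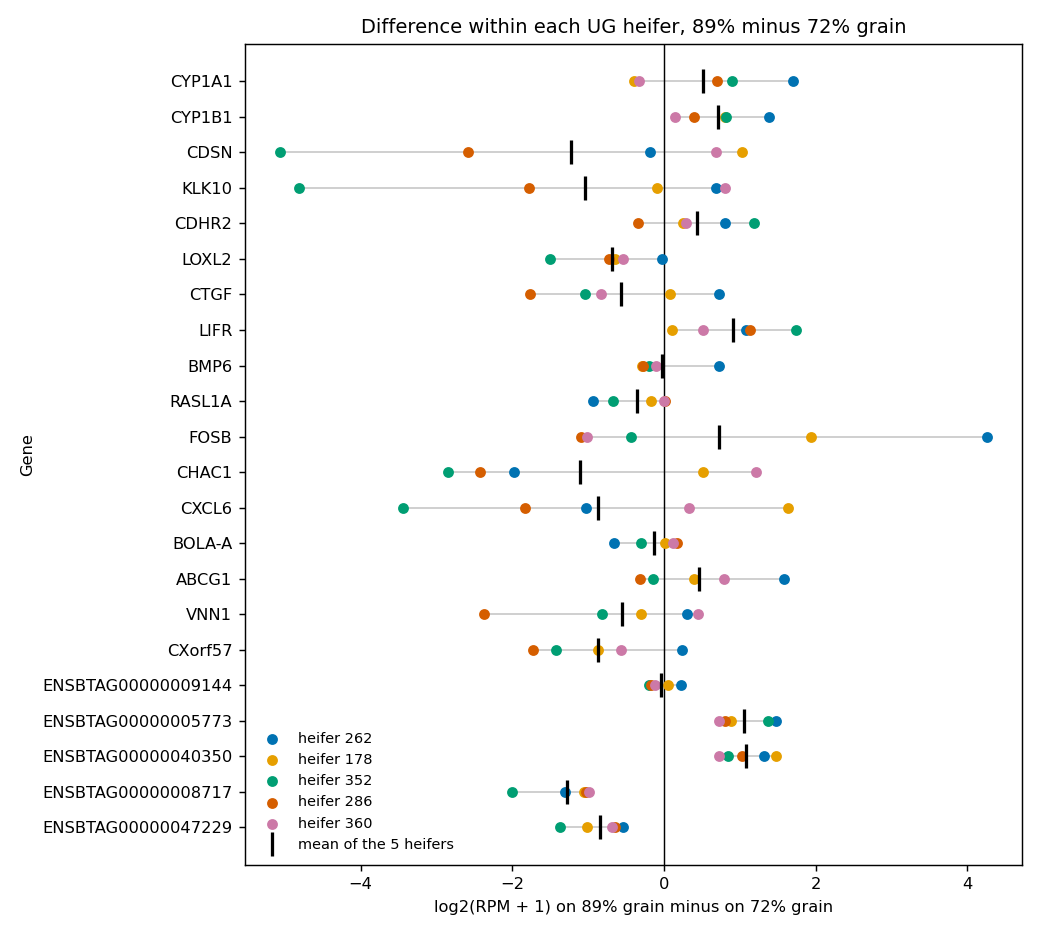
Difference of log2(RPM + 1) between 89% and 72% grain (horizontal axis) for each UG heifer (coloured points) and their mean (black tick), for the 18 named genes and 4 genes without a symbol. In the 4 genes at the bottom every heifer lies on one side of 0, while CDSN, KLK10, CXCL6 and FOSB each spread over more than 5 log2 units.

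Past these 18, the genes with the smallest p that moved one way in 5 of 5 heifers by over 1.5-fold carry no symbol here, and being picked for that they are a description. ENSBTAG00000005773 was at 9.10, 9.74, 13.8, 11.3 and 12.7 RPM on 72% grain in heifers 262, 178, 352, 286 and 360. On 89% grain it was at 27.0, 18.7, 37.3, 20.4 and 21.6 RPM. The diets did not overlap, and the log2 difference was 1.05 ± 0.138 (SE, paired limma, adjusted p = 0.102). ENSBTAG00000040350 went from 2.39 ± 1.17 to 6.10 ± 1.98 RPM, a log2 difference of 1.08 ± 0.15 (SE, paired limma, adjusted p = 0.102). Among the lower genes, ENSBTAG00000008717 was at 12.7, 14.6, 15.7, 5.55 and 18.3 RPM on 72% grain and at 4.55, 6.53, 3.15, 2.20 and 8.70 RPM on 89% grain. Heifer 286 was the lowest on both diets, and for that reason the ranges overlapped. The log2 difference was -1.28 ± 0.164 (SE, paired limma, adjusted p = 0.102). ENSBTAG00000047229 went from 51.2 ± 18.8 to 28.0 ± 11.4 RPM, a log2 difference of -0.85 ± 0.13 (SE, paired limma, adjusted p = 0.102). In the fit of all 45 libraries the first 3 passed (adjusted p = 0.0316, 0.0243 and 0.0418) and the last did not (0.11).

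Whether the step moved UG heifers differently from the other 10 was tested on the within-heifer differences. By limma, 0 of 11516 genes (0%) passed at an adjusted p under 0.05, and the smallest adjusted p was 0.215. At an unadjusted p under 0.05 there were 1586 genes (13.8%), 298 with a higher and 1288 with a lower change in UG. After TMM scaling there were 1297 (11.3%), 674 and 623, so this direction too belonged to the scale. The other 10 heifers gave 0 called genes on this step by themselves, with 608 genes higher (5.28%) and 554 lower (4.81%) at an unadjusted p under 0.05.

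The other 10 heifers share no sample with UG, and their change on this step was not used to pick the UG genes. They did take part in the filter, which asked for over 1 RPM in every heifer of the series on 1 diet or more. A gene of low level can pass it on 1 diet only, which favours the same direction in both groups. The agreement given below is therefore not from an independent set, and the share of it that comes from the filter was not tested. Of the 91 genes higher in every UG heifer by over 1.5-fold, 86 had a positive mean difference in the other 10, and 33 (36.3%) were higher there at an unadjusted p under 0.05, against 5.28% of all tested genes. Of the 101 lower genes, 69 were lower in the other 10, and 21 (20.8%) at an unadjusted p under 0.05, against 4.81%. The sizes were smaller outside UG: the median log2 difference of the 91 genes was 0.74 in UG and 0.21 in the others, and that of the 101 genes was -0.73 in UG and -0.10 in the others. The genes were picked by their size in UG, so the sizes of the groups are not on an equal footing. Over all 449 and 1463 genes with 1 direction in UG, 82.2% and 67.2% had the same direction in the mean of the others, where 50.0% of all tested genes were higher and 50.0% lower.

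Single genes varied in how the other heifers compared. LIFR had a mean log2 difference of 0.11 in the other 10 heifers, against 0.91 in UG. It was listed by the study through a low UG value on 72% grain (heifer 360, 0.892 RPM), which favours a larger change in UG. The changes of the groups are therefore given without a test for LIFR. LOXL2 was lower in 8 of the other 10 heifers, by a mean of -0.30, and the UG change minus theirs was -0.39 ± 0.337 (SE, limma, adjusted p = 0.631). VNN1 was lower in 9 of the other 10 heifers with a mean of -0.57, next to -0.55 in UG. ENSBTAG00000047229 was lower in 8 of 10, and ENSBTAG00000005773 was higher in 9 of 10 with a mean of 0.43. The 5 genes listed by the study for their opposite directions were also named here by the changes it gives. For them the means of the other 10 are given without a test: -0.48 for CYP1A1, -0.12 for CYP1B1, 0.54 for CDSN, 0.50 for KLK10 and 0.65 for CHAC1.

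**Figure D5:**
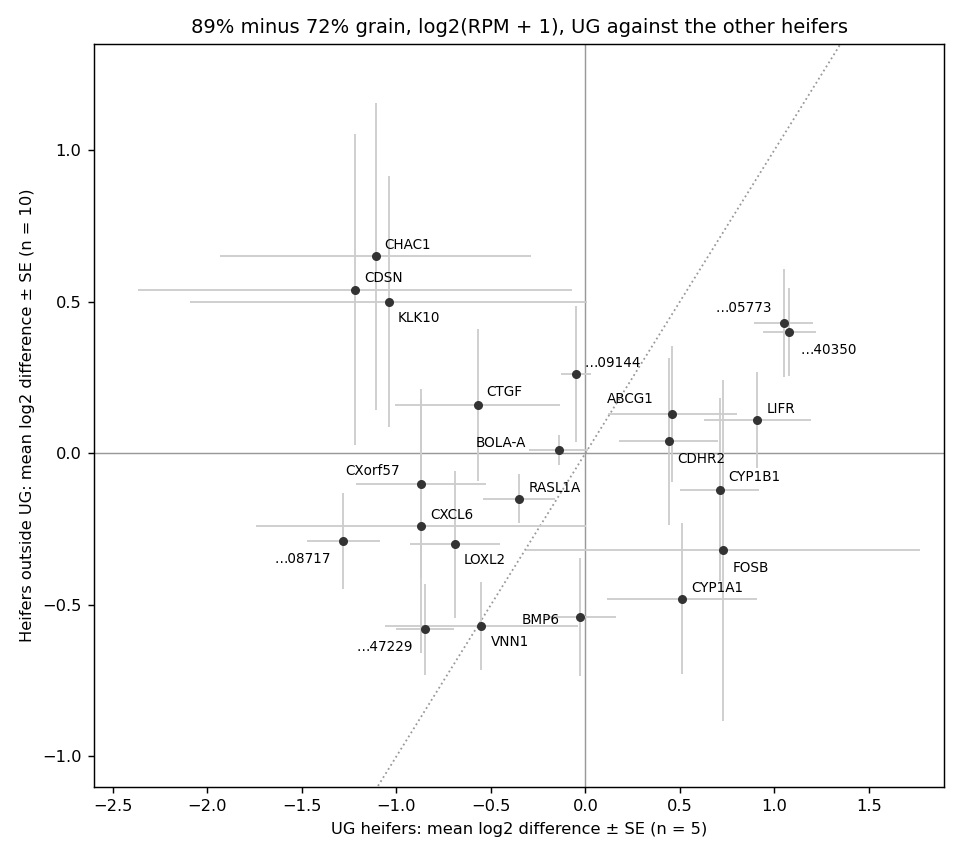
Mean difference of log2(RPM + 1) between 89% and 72% grain in the 5 UG heifers (horizontal axis) and in the 10 heifers outside UG (vertical axis), for 22 genes, with a dotted line where both are equal. The standard errors are from the spread between heifers alone, unlike the moderated ones in the text. The 4 genes without a symbol that were picked in UG have the same sign outside UG and lie nearer to 0 there, while CHAC1, CDSN and KLK10 sit on opposite sides of 0 in the groups. The names CHAC1, CDSN and KLK10 were assigned by the direction and size of change the study gives.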

How the data were processed

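RNA of ground papillae was sequenced by the authors with a TruSeq mRNA kit on an Illumina HiSeq instrument, 9 libraries a lane (which lane held which library is not given in the sources used here). The authors used CASAVA 1.8, TopHat2 2.0.10 on UMD 3.1 and htseq-count on Ensembl gene models. The deposited RPM values are gene reads over all reads on genes, scaled to a sum of 1000000. They came out as whole reads for 100% of values within 0.01 reads, and these reads served edgeR and DESeq2. UG was taken from the animal number in the titles. A gene was tested if, on 1 diet or more, each of the 15 heifers had it above 1 RPM. The test was the moderated test of limma 3.58.1 (log2(RPM + 1), variance trend, heifer as block, 10 UG samples). Fold changes are on the log2(RPM + 1) scale, which understates the change of low genes. Pairing comes from the animal: deviations from the group means correlated at 0.164 to 0.376 within heifers and at -0.292 to 0.259 (median -0.086) between heifers. No 2 libraries of a group were alike within counting noise.

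Genes, lists and comparisons were chosen with earlier results of these data known. Named genes were those the study pairs with an identifier, 5 names assigned to identifiers by the direction and size of change the study gives (names with close values could be exchanged), and at most 2 genes a direction without a symbol, by smallest p. The reference table matched 0 of 24616 identifiers, so the 23 prepared gene lists, the cell type markers that would check the tissue, and gene length or GC content were not run. Alternatives covered the block, scaling, pseudocount (0.1, 0.5), filter, variance trend, edgeR 4.0.16 (quasi-likelihood test), DESeq2 1.42.0 and each heifer left out. The fits were also run on simulated data (R 4.3.3), and that run is not used here to judge between them. The replicates are the 5 UG animals, or all 15 in the fit of all 45 samples and the comparison with the other 10 heifers. In limma the spread of each gene is moderated over all genes, so its p-values and standard errors do not rest on these animals' spread in that gene alone.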

Additional observations from a re-analysis of the deposited data

Results flagged for a closer look

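In groups of 5, a value whose gap to its nearest neighbour exceeded 0.71 of the group's range was marked, which chance does in about 1 in 20 groups; 48 groups were examined and 3 values were marked. KLK10 was at 88.0 RPM in heifer 352 on 72% grain, with the next heifer at 10.8 RPM. CYP1B1 was at 33.3 RPM in heifer 352 on 89% grain, with the next at 16.7 RPM. CXCL6 was at 13.8 RPM in heifer 178 on 89% grain, with the next at 3.63 RPM. The cause of these values was not tested.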

How the results depend on the processing

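The call of 0 genes in the paired comparison held without the heifer block, under TMM and median-of-ratios scaling, other pseudocounts and filters, no variance trend, no fold minimum, edgeR with and without the block, and without each heifer. In these runs the smallest adjusted p went from 0.0537 (limma without heifer 178) to 0.291 (limma without heifer 352). It was 0.0618 in limma with TMM and 0.0659 in edgeR with the block, so some runs came close to the threshold. The number called became 107 in 1 fit of all 45 samples, 266 with DESeq2 and 176 with DESeq2 without the block, the last chosen after seeing the data. Without the block, limma gave 346 higher and 956 lower genes at an unadjusted p under 0.05, and no call in limma or edgeR changed with the pairing. In DESeq2, dropping the block took the adjusted p of CYP1B1 from 0.000578 to 0.162, of CXorf57 from 0.00853 to 0.451 and of ENSBTAG00000047229 from 2.96e-05 to 0.0976, and took LOXL2 from 0.0523 to 0.0343. The higher and lower counts were 941 and 779 with TMM, 932 and 783 with median of ratios, 964 and 728 with edgeR, 773 and 550 with edgeR without the block, 930 and 750 with DESeq2 and 789 and 664 with DESeq2 without the block. Leaving out 1 heifer gave 361 to 729 higher and 894 to 1312 lower genes. Genes with 1 direction in all 5 heifers were 920 and 765 with TMM and 918 and 784 with median of ratios. Over the 4 heifers left, chosen after seeing the data, they were 586 to 1078 higher and 1814 to 2327 lower, more by construction because fewer animals had to agree. The comparison with the other 10 heifers called 0 genes in each alternative run.

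The sign changed in 4 single genes, of which BMP6, ENSBTAG00000009144 and BOLA-A were close to 0 and FOSB was not. BMP6 was 0.015 with TMM, 0.016 with median of ratios, 0.022 with edgeR and 0.020 with DESeq2, and -0.219 to 0.032 with 1 heifer left out. ENSBTAG00000009144 was 0.017, 0.018, 0.029 and 0.019 in the same order. BOLA-A was 0.026 with edgeR and 0.023 with DESeq2, both without the block. FOSB, at 0.73 with all heifers, was -0.151 without heifer 262 and up to 1.19 with another heifer left out. The cause was not tested, and no check of gene length or GC content could be run. With 5 animals, a change of the size seen in CYP1A1 or CDSN lies within the spread between heifers, and CHAC1 at its lowest rests on 3 reads.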
